A study of Mus musculus with 11 samples.

Results

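The regions described here are the last 10 Mb of mouse chromosomes 1 to 19, the ends nearest the distal telomeres. They were chosen by position alone: in each autosome, the 200 bins of 50 kb that end at the highest coordinate listed in the ensemble map (genome build mm9), which gave 3800 of 49453 autosomal bins, or 7.68%. They were compared with the first 10 Mb of the same chromosomes, next to the centromeres, and with the 10 Mb at the chromosome's midpoint, each also 3800 bins. The maps were made by Hi-C, in which neighbouring pieces of fixed, cut chromatin are ligated and each ligated pair is read as 1 contact.

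The cells were Th1 cells, CD4+ helper T cells from spleens of male C57BL/6 mice, which all groups share. Spleen cells had been stimulated with anti-CD3, purified on anti-CD4 beads and expanded in IL-2, with no genetic change and no treatment that set groups apart. Single-cell maps of 9 cells and 1 population map (the ensemble) were cut with Bgl II, and the map of cell 8 with Dpn II. A pooled map of single cells holds every contact of the 9 Bgl II cells. The pool without them, called the rest of the pool below, is separate from those cells. Contact maps hold no expression, so the labelled cell type was not checked against markers, and the labels used here give no age of the mice.

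Mouse chromosomes are telocentric: the centromere lies at the start, so the first and last megabases of an autosome are its centromeric and its distal end. In a nucleus that keeps the polarity of the last cell division, known as the Rabl arrangement, centromeres face one side and distal telomeres the other. Trans contacts, those between chromosomes, are where such an arrangement can be read in Hi-C, because they compare positions on separate DNA molecules.

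The Bgl II cells held 11156 to 30665 contacts, of which 1733 to 6777 joined different autosomes. Cell 8 held 12225 contacts with 2655 between autosomes, the rest of the pool 2119836 with 414159, and the ensemble 51834382 with 25229000. Separate animals or cultures are not named in the labels, nor is a batch. The p-values therefore measure only the spread between these cells, which may be technical. Poisson and Wilson intervals cover counting error alone, and contacts of 1 cell that lie next to each other are not independent.

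Most bins of the distal ends could be read. Of the 3800 bins, 3699 held a Bgl II fragment end, against 2416 in the first 10 Mb and 3780 in the middle windows. In the first 10 Mb the ensemble lists no position before 3010766 on any autosome. Fragment ends were counted as the distinct positions in all ensemble contacts, within and between chromosomes. Fragment ends numbered 557 per Mb in the last 10 Mb, 337 in the first and 554 in the middle. The thinnest distal end was that of chromosome 2, from 171750001 to 181750000, with a fragment end in 144 of its 200 bins. No mm9 annotation was used, so no gene was placed in a window. For orientation only, the RefSeq order of named protein-coding genes on GRCm38.p6 ends with Cr2, a complement receptor gene, on chromosome 1. It ends with Wls, which codes for the carrier of secreted Wnt proteins, on chromosome 3. Itgb1, which codes for an integrin subunit, is among the last 5 named genes of chromosome 8. These genes were not measured.

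Distal ends of different chromosomes met each other more often than their own trans contacts predict. The expected number for a window pair was the number of contacts between the 2 chromosomes times the share of each chromosome's trans ends in its window, so that a ratio of 1 means no preference. In the ensemble, 319801 contacts joined distal ends against 262248 expected, a ratio of 1.22 (95% Poisson interval 1.215 to 1.224). In the rest of the pool 5959 were seen against 4196 expected, a ratio of 1.42 (1.38 to 1.46). Both maps of many cells thus had an excess of end to end contacts, and it was larger in the single-cell pool than in the ensemble.

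The 9 Bgl II cells each held 17 to 68 contacts between distal ends, 394 in all. Their ratios ran from 0.941 in cell 3 through a median of 1.30 to 1.95 in cell 6, with a mean of 1.39 ± 0.388 (SD, n = 9). The ratio was above 1 in 7 of 9 cells, and cells 3 and 7 (0.995) lay just below it. The mean differed from 1 (exact sign-flip permutation test over cells, two-sided, p = 0.0156, Benjamini-Hochberg over 6 window pairings 0.0391). Cell 6 held 39 such contacts against 20.05 expected and cell 1 held 48 against 27.8, whereas cell 3, with the second highest number of trans contacts, held 50 against 53.1. Cell 8 had a ratio of 1.51 (45 contacts, 1.105 to 2.03), between those of cells 2 and 5. The call rests on few cells: without cell 1, 2, 4, 5, 9 or 10 the adjusted p of the exact test rose above the threshold of 0.05, to between 0.0625 and 0.0781, while the mean stayed between 1.32 and 1.45. Without chromosome 19 the adjusted p was 0.0547 (exact test) and the mean 1.41.

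**Figure D1:**
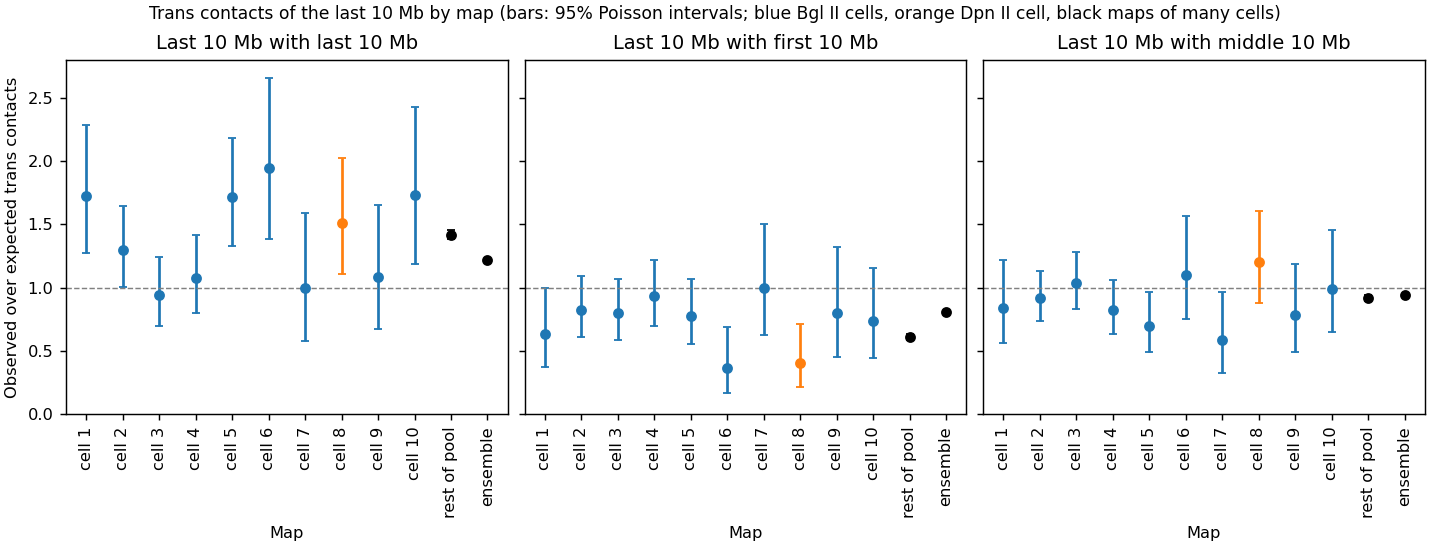
Observed over expected trans contacts (y axis, no unit) of the last 10 Mb with the last, first and middle 10 Mb of other autosomes, for each map (x axis); points are single maps, bars are 95% Poisson intervals, and the dashed line marks a ratio of 1. End to end ratios lie above 1 in 7 of 9 Bgl II cells, and ratios with the first 10 Mb lie below 1 in each of the 9.

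Distal ends met centromeric ends less often than their own trans contacts predict. The ratio of last with first 10 Mb was 0.806 (0.802 to 0.809; 208642 contacts) in the ensemble and 0.609 (0.587 to 0.630; 3138 contacts) in the rest of the pool. In the Bgl II cells it ran from 0.363 in cell 6, with 9 contacts against 24.8 expected, through a median of 0.8002 to 0.996 in cell 7, and it was below 1 in 9 of 9 cells. The mean of 0.763 ± 0.183 (SD, n = 9) differed from 1 (exact sign-flip permutation test, two-sided, p = 0.00391, the smallest that 9 cells can give, adjusted 0.0234). Cell 8 had 12 contacts and a ratio of 0.408 (0.211 to 0.713). With 5 Mb windows the mean was 0.702 and the call was lost (adjusted p of the exact test 0.0938). Where the expected number came from Bgl II fragment ends in place of trans ends, the mean of the Bgl II cells was 1.08, above 1 in 6 of 9 cells. The ensemble then had 1.02 (1.015 to 1.024) and the rest of the pool 0.907 (0.875 to 0.939), so only the rest of the pool stayed below 1. Both kinds of end held more trans ends per fragment end than the genome, with values given below.

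With the middle windows, the distal ends had ratios nearer to 1. They were 0.939 (0.936 to 0.942) in the ensemble and 0.916 (0.892 to 0.940) in the rest of the pool. The mean of the Bgl II cells was 0.865 ± 0.165 (SD, n = 9; below 1 in 7 of 9 cells), which did not pass after adjustment (exact sign-flip permutation test, p = 0.043, adjusted 0.0645). It passed with 5 Mb windows, with a mean of 0.798 and an adjusted p of 0.0234 in the exact test, and without cell 6, where the mean was 0.835 and the adjusted p 0.0469.

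Compared within each cell, the end to end ratio was above the ratio with centromeric ends by 0.627 ± 0.544 (SD, n = 9). It was higher in 8 of 9 cells, and in cell 7 the values were almost equal. It exceeded the ratio with middle windows by 0.525 ± 0.366 (SD, n = 9), again in 8 of 9 cells, with cell 3 the exception. Both differences passed (exact sign-flip permutation tests, two-sided, p = 0.00781 each, adjusted over 4 differences 0.0156 each). Middle windows with each other had a mean ratio of 0.881 ± 0.288 (SD, n = 9), and the distal ends were above them by 0.509 ± 0.590 (SD, n = 9), in 7 of 9 cells. That difference missed the threshold (exact sign-flip permutation test, p = 0.043, adjusted 0.0573), and passed without cell 7 (0.605, adjusted p of the exact test 0.0312).

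Distal ends were not alone in meeting their own kind. Centromeric ends had a ratio of 1.32 with each other in the ensemble, 1.63 in the rest of the pool and 1.51 ± 0.568 (SD, n = 9) in the Bgl II cells, above 1 in 8 of 9 (exact sign-flip permutation test, adjusted p = 0.0391). That call was lost when any 1 cell other than cell 6 was left out, with adjusted p values of the exact test up to 0.0781. The means lay between 1.36 and 1.61 over the 9 sets. The end to end ratio was lower than this one by 0.119 on average, with an SD of 0.665 over 9 cells, and a difference was not shown (exact sign-flip permutation test, p = 0.605, adjusted 0.605). The order was turned in 3 of 9 cells. It was turned most in cell 6, with 1.95 for distal and 0.677 (0.220 to 1.58, 5 contacts) for centromeric ends.

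Each chromosome was then cut by length into 10 equal parts, numbered from the centromere. Part 10, the distal one, met part 10 of other chromosomes at a ratio of 1.24 in the ensemble and 1.48 in the rest of the pool. Its ratio fell with each part towards the centromere in both maps, through 0.936 and 0.919 with part 5, to 0.805 and 0.598 with part 1.

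**Figure D2:**
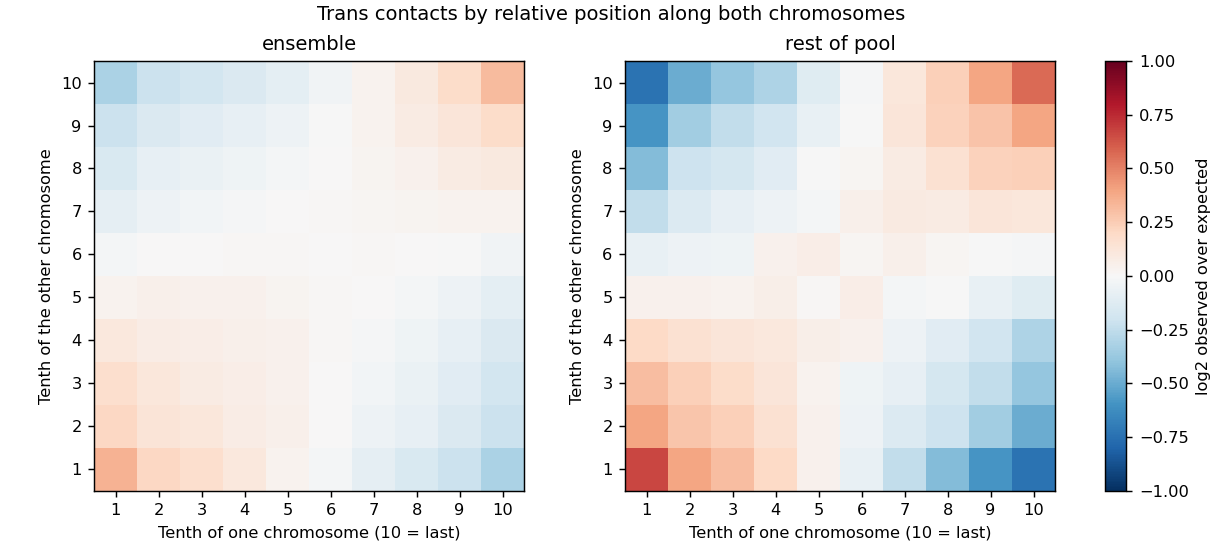
Trans contacts by relative position: each chromosome is cut into 10 equal parts (1 next to the centromere, 10 the distal end), and colour gives the log2 of observed over expected contacts for pairs of parts on different autosomes, in the ensemble (left) and the rest of the pool (right). Both maps are red where first meets first and last meets last, and blue where first meets last, and the colours are stronger in the rest of the pool.

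The excess was highest at the very end and faded inwards. Between the last 1 Mb of different chromosomes the ratio was 1.91 (1.85 to 1.97; 4219 contacts) in the ensemble, 2.96 (2.50 to 3.48; 144 contacts) in the rest of the pool and 2.44 (1.11 to 4.62; 9 contacts) in the Bgl II cells summed. For the last 5 Mb it was 1.28, 1.59 and 1.54, and for the last 20 Mb 1.15, 1.29 and 1.23. Longer windows thus gave smaller ratios in all 3 maps.

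Contacts with the last 10 Mb of other chromosomes also thinned out with distance from the end. In steps of 5 Mb, the ratio in the ensemble fell from 1.24 in the outermost step to 1.16 at 10 to 15 Mb, 1.05 at 30 to 35 Mb and 0.988 at 45 to 50 Mb. In the rest of the pool it fell from 1.498 (1.46 to 1.53) through 1.31 and 1.15 to 1.00. The Bgl II cells summed started at 1.45 (1.32 to 1.60; 441 contacts) and reached 1.01 (0.892 to 1.13) at 20 to 25 Mb, with 1.15 (1.01 to 1.30) at 30 to 35 Mb. Across the 10 Mb limit the ratio went from 1.19 to 1.16 in the ensemble and from 1.34 to 1.31 in the rest of the pool, so the limit cuts a gradient in these maps.

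**Figure D3:**
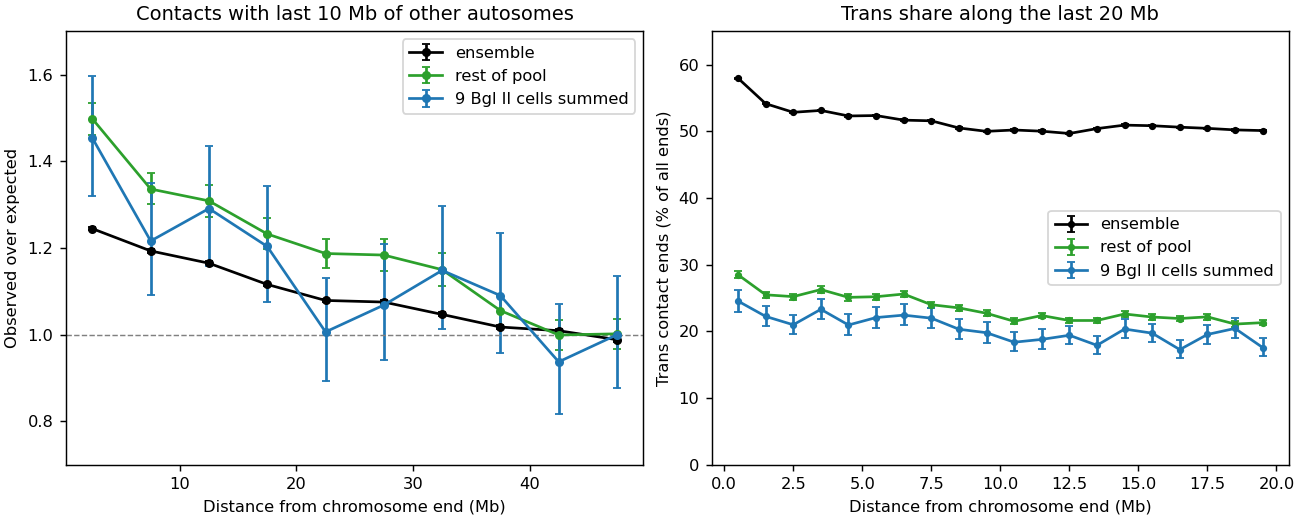
Left, observed over expected contacts of 5 Mb steps with the last 10 Mb of other autosomes; right, trans contact ends as a percent of all contact ends in 1 Mb steps; both against distance from the chromosome end in Mb, with 95% intervals (Poisson left, Wilson right). The left curves fall towards 1 by about 45 Mb, and the right curves are highest in the outermost Mb, at 58.0% in the ensemble and 28.5% in the rest of the pool.

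Trans contacts also made up more of the contacts of distal ends than of other regions. In the Bgl II cells 21.9% ± 6.996 (SD, n = 9) of contact ends in the last 10 Mb were in trans contacts, against 16.7% ± 6.92 in the middle windows and 17.9% ± 6.69 over whole autosomes. The difference from the middle was 5.20 points ± 1.702 (SD, n = 9), from 1.83 in cell 2 through a median of 5.89 to 7.96 in cell 10. The difference from whole autosomes was 3.98 points ± 1.254 (SD, n = 9), from 2.33 to 5.61. Both were positive in 9 of 9 cells (exact sign-flip permutation tests, two-sided, p = 0.00391 each, adjusted over 3 differences 0.00586 each). The first 10 Mb had a similar mean, 21.8% ± 7.75 (SD, n = 9), and the distal ends differed from it by 0.101 points ± 2.69 (SD, n = 9; exact sign-flip permutation test, p = 0.914, adjusted 0.914), with the sign split 5 to 4 between cells. The shares were 52.6% in the last, 49.6% in the middle and 56.0% in the first 10 Mb of the ensemble, and 25.1%, 18.9% and 26.1% in the rest of the pool.

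An end has cis neighbours on 1 side only, so the share was set beside a count of trans ends over fragment ends. The fragment ends themselves come from ensemble contacts of both kinds, cis and trans. Trans ends per Bgl II fragment end in the last 10 Mb were 1.26 ± 0.106 (SD, n = 9) of the autosomal mean in the Bgl II cells, 1.26 in the rest of the pool and 1.27 in the ensemble. Middle windows had 0.918 ± 0.0565 (SD, n = 9), 0.918 and 0.944. The first 10 Mb had 1.21 ± 0.124 (SD, n = 9), 1.27 and 1.03, so that in the single-cell maps they were close to the distal ends. All contact ends per fragment end stood at 1.01 ± 0.0361 (SD, n = 9) for the distal ends of the Bgl II cells, but at 1.22 in the ensemble. In the single cells the distal ends were thus as well covered as the genome, with more of that coverage in trans. The ensemble covered them more deeply in all contacts.

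The share rose towards the telomere. In the ensemble 57.96% of ends in the outermost Mb were in trans contacts, 52.3% at 4 to 5 Mb and 49.99% at 9 to 10 Mb. In the rest of the pool the same steps had 28.5% (28.0 to 29.0), 25.1% and 22.7%, and in the Bgl II cells summed 24.5% (23.0 to 26.2), 21.0% and 19.8%. The outermost Mb had the highest share in each of the 3 maps. Trans ends per fragment end, relative to the autosomal mean, did not peak there in the ensemble. They stood at 1.18 in the outermost Mb and at 1.36 at 2 to 3 Mb. In the rest of the pool and in the Bgl II cells summed they were highest in the outermost Mb, at 1.37 in both. Over the next 10 Mb, from 10 to 20 Mb, the share in the rest of the pool stayed between 21.1% and 22.6%.

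By chromosome, the last 10 Mb had a trans share above that of its own chromosome in 16 of 19 cases in the ensemble, 17 in the rest of the pool and 18 in the Bgl II cells summed. Among all 240 windows of 10 Mb counted back from the chromosome ends, 45.0%, 43.3% and 47.5% did so. The whole pool also had 17 ends above their chromosome, with 43.8% of all windows. The trait was not particular to distal ends. The first 10 Mb lay above their chromosome on every autosome but 16 in the ensemble (52.1% against 53.9%). In the rest of the pool they did so on every autosome but 14 (20.6% against 20.9%), and in the Bgl II cells summed on every autosome but 6, 9 and 16. In the ensemble the 3 highest shares were those of chromosome 12, from 111300001 to 121300000, with 56.2%, chromosome 19, from 51350001 to 61350000, with 55.98%, and chromosome 18 with 55.6%. The 3 lowest were those of chromosomes 1 (46.0%), 2 (46.5%) and 5 (49.7%). The distal ends of chromosomes 1 and 2 lay below their chromosomes' own 48.0% and 47.3%, as did that of chromosome 19 below 56.7%. In the rest of the pool the order was another one: chromosomes 11 (29.9%), 15 (29.7%) and 8 (29.0%) led, and chromosomes 1 (18.1%) and 3 (18.2%) came last. In that map chromosome 17 (24.6% against 24.8%) and chromosome 19 (27.6% against 28.1%) lay below their chromosomes.

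Genomes fold into 2 kinds of large compartment, one rich in active genes and one poor, and regions of 1 kind meet each other. Here the classes came from the leading eigenvector, by sign, of cis contacts in the ensemble at 1 Mb. Class 1 is the class with more Bgl II fragment ends, since no mm9 annotation was at hand to name the active one. Of the 3705 classed distal bins, 48.7% (95% Wilson interval 47.1 to 50.3) were class 1, against 36.5% of all classed autosomal bins, 32.8% of the middle windows and 39.2% of the first 10 Mb. Without balancing of the ensemble matrix the shares were 60.3% and 56.9%, so the difference between distal ends and all autosomal bins was much smaller. Neighbouring bins share a class, so the interval is too narrow. The ends differed widely: the last 10 Mb of chromosome 8, from 121750001 to 131750000, were 97.5% class 1, followed by chromosomes 4 (76.9%) and 15 (75.0%). At the other extreme stood chromosome 3, from 149600001 to 159600000, with 10.0%, chromosome 1 with 10.2% and chromosome 17 with 10.3%. Class 1 bins were the majority in 9 of 19 distal ends, in 6 of 19 windows of the first 10 Mb and in 3 of 19 middle windows.

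Trans share followed class across the ends in the single-cell maps. Over the 19 ends, the class 1 percentage and the trans share had Pearson r = 0.765 and Spearman rho = 0.733 in the rest of the pool, 0.479 and 0.484 in the Bgl II cells summed, and 0.236 and 0.175 in the ensemble. In the rest of the pool the trans share also went with chromosome length (r = -0.649, rho = -0.577), and less with fragment ends per Mb (r = 0.396, rho = 0.302). Whether class goes with the share apart from these was not tested over the ends. The points share libraries, and the classes come from the ensemble, so these are descriptions. Within a class the distal ends still had a higher trans share than the middle windows. Their class 1 bins had a trans share of 24.0% ± 7.72 (SD, n = 9) against 19.3% ± 6.73 in class 1 bins of the middle windows, and their class 2 bins 19.6% ± 6.55 (SD, n = 9) against 15.2% ± 7.08. Both differences, 4.74 points ± 2.42 and 4.46 points ± 2.55 (SD, n = 9), were positive in 9 of 9 cells. Against the first 10 Mb no such separation was seen: the differences were -1.23 points ± 2.19 in class 1 (positive in 4 of 9 cells) and 0.211 points ± 3.83 in class 2 (5 of 9).

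The end to end excess was nearly as large with class held fixed. With the expected number matched on the class of both bins, the ratio was 1.22 in the ensemble and 1.41 in the rest of the pool, next to 1.22 and 1.42 without matching. Split by class in the rest of the pool, distal class 1 bins met each other at 1.76 times the expected number (1.69 to 1.84; 2320 contacts) and distal class 2 bins at 2.03 times (1.93 to 2.14; 1546 contacts). Over all autosomal bins the same class pairs had 1.33 and 1.29. Contacts of distal class 1 with distal class 2 bins stood at 0.969 (0.927 to 1.01), where the genome had 0.690. The Bgl II cells summed gave 1.79 (1.53 to 2.09), 1.59 (1.27 to 1.95) and 0.960 (0.807 to 1.13), and the ensemble 1.36, 1.57 and 1.00. All 3 class pairings were higher among distal ends than over the genome, in each of these 3 maps. The same held for centromeric ends, which had 1.79, 2.13 and 1.32 in the rest of the pool, 2.24, 1.81 and 0.942 in the Bgl II cells summed, and 1.41, 1.49 and 1.20 in the ensemble, in the same order.

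Nearly every distal end took part. Each end was taken against the other 18 ends. In the ensemble 18 of 19 ends had a ratio above 1, with a median of 1.245. The rest of the pool also had 18 of 19, with a median of 1.42. In both maps, 18 of 19 ends had a higher ratio with other distal ends than with the middle or the first 10 Mb. First and middle windows were not counted in this way against their own kind. Whether the count is particular to distal ends was therefore not tested. Chromosome 2 had the highest ratio, 1.42 (1.41 to 1.44) in the ensemble and 1.87 (1.71 to 2.03) in the rest of the pool, with 1.95 (1.37 to 2.69; 37 contacts) in the Bgl II cells summed. Chromosome 1 stood at 1.349 and 1.81 in the first 2 of these maps, chromosome 10 at 1.29 and 1.76, and chromosome 11 at 1.101 and 1.28. Chromosome 19, the shortest autosome, was the exception. Its distal end had 0.889 (0.878 to 0.900) in the ensemble and 0.870 (0.791 to 0.954) in the rest of the pool, and met the first 10 Mb of other chromosomes at 1.13 and 1.07. In the Bgl II cells summed chromosomes 17 (0.980), 18 (0.632, 0.381 to 0.988; 19 contacts) and 19 (0.978) lay below 1.

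The ratio of an end went with the length of its chromosome. Over the 19 ends it had Pearson r = 0.900 and Spearman rho = 0.925 with length in the ensemble, and 0.903 and 0.921 in the rest of the pool. The window of 10 Mb covers 5.07% of chromosome 1 but 16.3% of chromosome 19. With part 10 of each chromosome in place of 10 Mb, the correlations were 0.895 and 0.933 in the ensemble and 0.915 and 0.933 in the rest of the pool, and chromosome 19 again had the lowest ratio, 0.888 and 0.940. Class 1 percentage had little relation with the ratio (r = -0.0678 and -0.0923). The ends' ratios in the ensemble and in the rest of the pool had r = 0.938 and rho = 0.916 with each other, and both maps share Bgl II fragment ends.

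**Figure D4:**
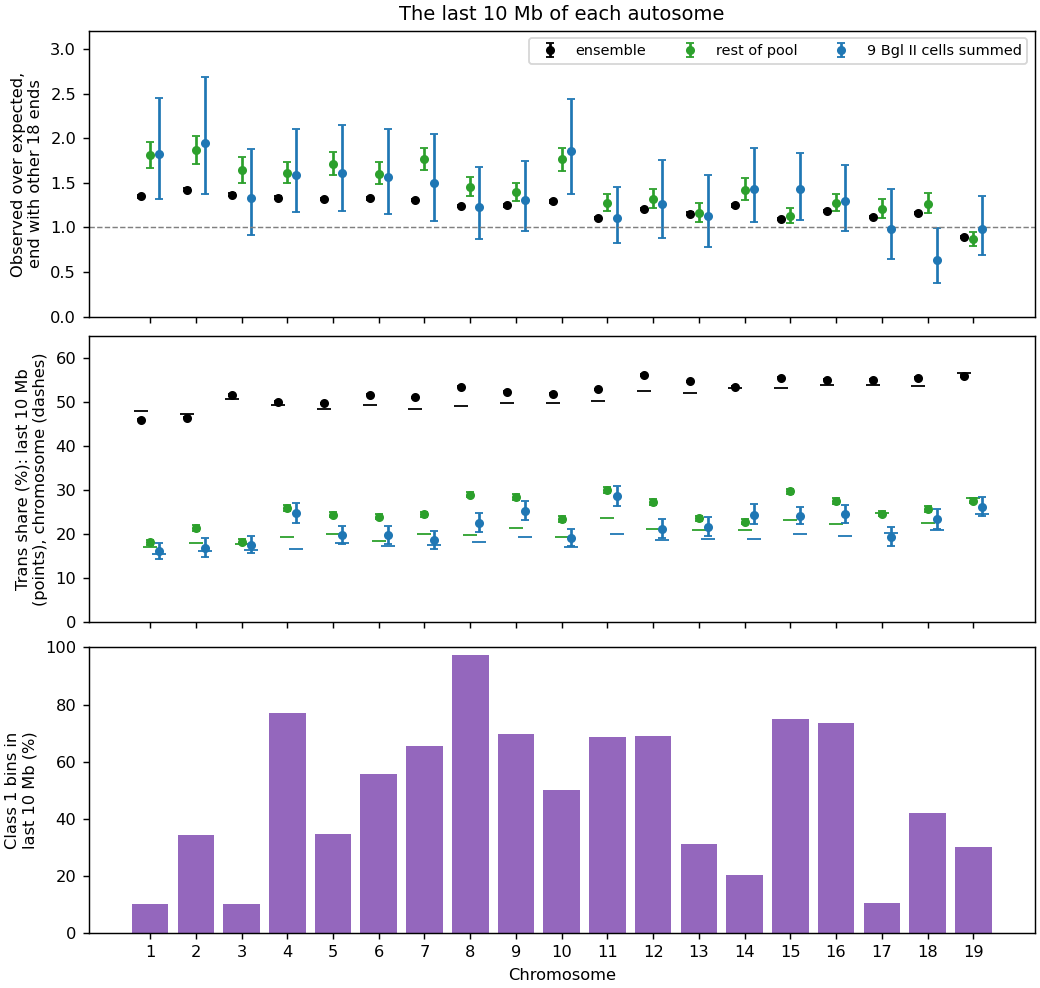
The distal 10 Mb of each autosome (x axis): top, observed over expected contacts with the other 18 distal ends; middle, trans share in percent of the last 10 Mb (points) and of the whole chromosome (dashes); bottom, percent of classed bins in class 1. Bars on points are 95% Poisson (top) and Wilson (middle) intervals. Ratios tend to decline from chromosome 1 to 19, where the ensemble falls to 0.889, while the class 1 percentage ranges from 10.0% to 97.5% with no such order.

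Each of the 19 ends was then paired with every other. In the ensemble 73 end pairs (42.7%) reached 125% of the expected number, where 4.88% of all 27191 pairs of 10 Mb windows on different autosomes did, and 3 (1.75%) were at 0.8 or below, where 6.31% of all pairs were. In the rest of the pool the interval lay wholly above 1 for 81 pairs (47.4%; 9.83% of all pairs) and wholly below it for 7 (4.09%; 10.0% of all pairs). The whole pool, which adds the 9 cells, had 80 pairs above (46.8%; 10.1% of all pairs) and 8 below (4.68%; 10.4% of all pairs). The median pair had 1.22 in the ensemble and 1.38 in the rest of the pool, against 1.00 and 0.947 over all window pairs. Of the 73 pairs, 80.8% were also among the 81, which is 72.8% of those.

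The pairs at the top were those of the longest chromosomes. Chromosomes 1 and 3 led in the ensemble with 1797 contacts against 798.6 expected (2.25, 2.15 to 2.36), and had 61 against 14.5 (4.21, 3.22 to 5.41) in the rest of the pool. Next came chromosomes 1 and 2 (2.23), 2 and 3 (2.20), 3 and 6 (1.91) and 1 and 6 (1.90), with 3.54, 3.04, 2.88 and 3.09 in the rest of the pool. The distal 10 Mb of chromosome 1 run from 187200001 to 197200000, and those of chromosome 6 from 139550001 to 149550000. The lowest 5 were chromosomes 11 and 19 (0.765, 0.734 to 0.797), 4 and 19 (0.797), 11 and 17 (0.799), 1 and 19 (0.842) and 5 and 19 (0.852), with 0.547, 0.554, 0.696, 0.908 and 0.952 in the rest of the pool. Chromosome 19 was in 4 of these 5 pairs. Among the 36 pairs of the 9 longest chromosomes, 31 reached 125% in the ensemble, with a median of 1.55. Of the 45 pairs of the 10 shortest, 6 did so, with a median of 1.14. In the rest of the pool the medians were 2.05 and 1.04. Over all end pairs, the ratios of both maps had Pearson r = 0.822 and Spearman rho = 0.761.

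**Figure D5:**
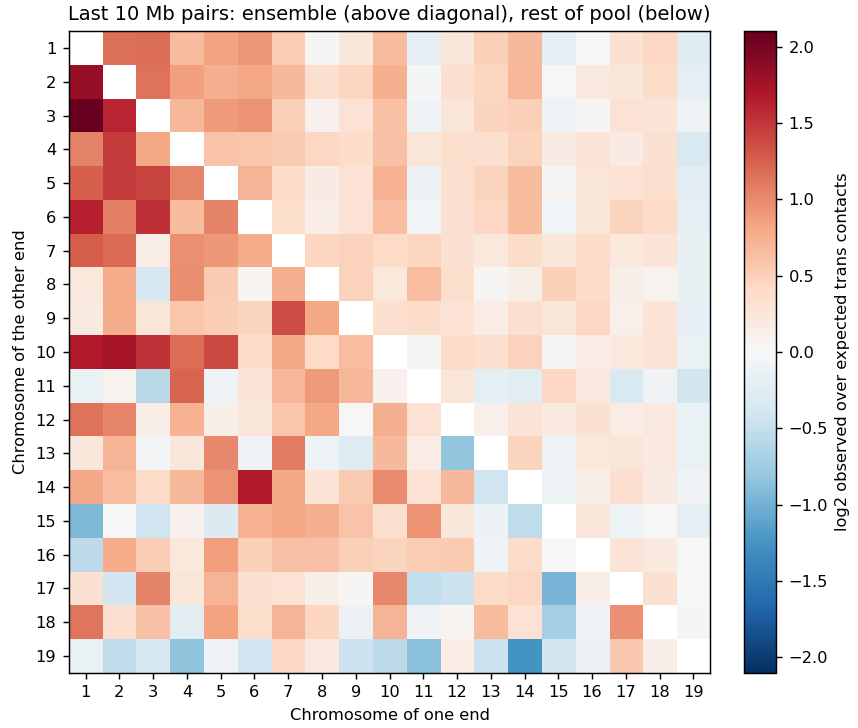
Pairs of distal 10 Mb ends: colour gives the log2 of observed over expected trans contacts for each pair of autosomes (both axes: chromosome), in the ensemble above the diagonal and the rest of the pool below it. The pairs of chromosomes 1 to 6 are red in both maps, at up to 2.25 in the ensemble and 4.21 in the rest of the pool as plain ratios, and the row and column of chromosome 19 are mostly blue.

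In a single cell, end to end contacts fell on 11 pairs in cell 7 to 31 pairs in cell 2, a mean of 23.7 ± 7.26 (SD, n = 9). Contacts placed independently at the expected numbers would have fallen on a mean of 26.3 ± 10.7 pairs (SD, n = 9). Only cells 6 (26 against 17.6) and 10 (24 against 17.4) had more pairs than expected. The other Bgl II cells had fewer, such as cell 3 (28 against 42.8) and cell 2 (31 against 39.4). The comparison was not matched on the number of end to end contacts. Cell 6 held 39 against 20.05 expected and cell 10 held 33 against 19.1, and more contacts alone would fall on more pairs. It therefore cannot show whether contacts were spread over more or fewer pairs than their number implies. Most ends took part in each cell, from 15 in cell 7 to all 19 in cells 2 and 6. Contacts of 1 cell were partly grouped: the 394 contacts of the Bgl II cells formed 323 groups when neighbours less than 1 Mb apart on both chromosomes were joined. The largest group of any of the 10 cells held 5 contacts, in cells 2, 5 and 8.

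The leading pair differed between most cells. In cell 1 it was chromosomes 15 and 19, with 12 contacts against 3.24 expected, and these chromosomes held 61 contacts in all. In cell 2 it was 11 and 15 (7 against 1.22), in cell 3 chromosomes 14 and 16 (7 against 0.577) and in cell 5 chromosomes 1 and 2 (7 against 0.381). Cell 6 was led by 4 and 13 (4 against 0.318), cell 8 by 9 and 11 (8 against 1.38) and cell 10 by 1 and 5 (4 against 0.157). Tied leaders were 3 and 11 with 8 and 16 in cell 4 (5 contacts each), 4 and 16 with 6 and 19 in cell 7 (3 each), and 3 and 5, 4 and 6, 9 and 11, and 17 and 19 in cell 9 (2 each). Chromosomes 9 and 11 thus led in cell 8 and were among the tied leaders of cell 9. As the leaders were picked for high counts, their expected numbers are no test.

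Pairs differed in how many cells they were seen in. Of all end pairs, 46 had no contact in any of the 10 cells, 55 had one in 1 cell, 41 in 2, 19 in 3, 9 in 4 and 1 in 5. That 1 pair was chromosomes 9 and 11, with 17 contacts in the 10 cells against 5.14 expected: 5 in cell 1, 8 in cell 8, 2 in cell 9 and 1 each in cells 2 and 6. As this pair was picked for its recurrence in these cells, its expected number is no test. Its ratio was 1.31 in the ensemble and 1.63 in the rest of the pool. Chromosomes 1 and 2, second in the ensemble, had contacts in 4 cells, 7 of the 11 in cell 5. Chromosomes 1 and 6, also among the top 5 in the ensemble, had 65 contacts in the rest of the pool and none in any of the 10 cells, where 0.963 were expected, so that no difference could be detected at this depth.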

How the data were processed

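The deposited files list positions in bp (no other unit), 1 line per distinct contact with chromosome and coordinate of both fragment ends, per the file headers. Positions are on mm9, per the submitters' processing notes. The sources used here name no aligner or filter. Chromosomes 1 to 19 and X were read, and 3 mitochondrial contacts of cell 8 left out. Window ratios used contacts between autosomes, and trans shares counted partners on X too. The regions, windows and named pairs were chosen with earlier results of these data known. Named were the 3 highest and lowest ends by ensemble trans share, the 5 highest and lowest end pairs in the ensemble, each cell's leading pair and the most recurrent pair. Classes came from ensemble cis matrices at 1 Mb (50 iterations of balancing, bins under 0.2 of the median row sum left out), with the sign set by fragment end density, as the planned gene annotation was not used. The exact sign-flip test was run over the 9 Bgl II cells, and the ensemble, pool and cell 8 got no test. The test was also run on simulated cells with equal numbers of independently drawn contacts. Those cells lack the differences between cells and the grouping of contacts seen here. Alternatives were other windows, expected numbers, contact counting and cells, and each cell left out. Computation used Python 3.11.15, pandas 2.3.3, numpy 2.4.6, matplotlib 3.10.9 and scipy 1.17.1.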

Additional observations from a re-analysis of the deposited data

Results flagged for a closer look

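Looking over 22 quantities measured in each Bgl II cell, 2 showed an extreme cell separated from the other 8. By chance about 1 quantity in 20 would show one. Cell 7 had the fewest distal ends with an end to end contact, 15 of 19, with 1829 trans contacts between autosomes, where the 9 cells held 1733 to 6777, and the fewest end to end contacts (17). Cell 1 had the most contacts on 1 pair of distal ends, 12 between chromosomes 15 and 19, 25.0% of its 48 end to end contacts.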

How the results depend on the processing

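The differences of the end to end ratio from the ratios with centromeric ends and with middle windows kept their direction under every alternative. They stayed past the threshold in every alternative with a test and without each cell in turn. The sum over cells had no test. The trans share differences from the middle windows and from whole autosomes kept their direction and stayed past the threshold under all their alternatives and without each cell. The end to end ratio itself stayed above 1 throughout, from 1.32 to 2.14. It missed the threshold without chromosome 19 (1.41, adjusted p of the exact test 0.0547), an alternative chosen after seeing the data like that without chromosome 2, and in 6 of 9 sets that leave out 1 cell (1.32 to 1.45). The centromeric ratio missed it with 5 Mb windows (1.69), with windows counted from the first position with data (1.33) and in 8 of 9 such sets (1.36 to 1.61). With 5 Mb windows the ratio of distal with centromeric ends also missed it (0.702), and the ratio with middle windows passed (0.798; 0.835 to 0.900 with a cell left out). The difference from middle windows among themselves passed with 5 Mb windows (1.01), 15 Mb windows (0.446), an expected number from fragment ends (1.43), all 10 cells (0.510) and without cell 7 (0.410 to 0.605 with a cell left out). With expected numbers from fragment ends, middle windows passed (0.709), and the ratio of distal with centromeric ends (1.08) and the difference between distal and centromeric ends (0.0733) changed sign. The latter also did so with windows from the first position with data (0.0555). The ratio of centromeric with middle windows, not past the threshold, turned with 5 Mb (1.27) and 15 Mb windows (1.01). The trans share difference between distal and centromeric ends, also not past it, turned with cis contacts under 1 Mb (-1.17 points), 5 Mb windows (-0.438), 15 Mb windows (-0.0197) and the median over chromosomes (-0.221), and ran from -0.476 to 0.698 with a cell left out. The cause of these changes was not tested. The 73 ensemble pairs became 26 at 1.5-fold and 122 at 1.1-fold, with 0 and 17 pairs on the low side. The share of all window pairs was not counted at these 2 thresholds, so these counts have no background beside them. Class 1 made up 52.1% of distal bins at 0.5 Mb bins, and 60.3% without balancing, where it made up 56.9% of all autosomal bins. The differences between windows were paired within each cell. Samples of different groups could not be paired, because the groups share no replicate number that the labels tie together. Depth limits single cells to 17 to 68 end to end contacts each.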
